A study of Mus musculus with 14 samples.

Results

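Secretory proteins best known from the epididymis were followed across whole-testis arrays of mice with and without Glis3. The set holds the genes of 5 families by name: 26 beta-defensins (Defb), 10 lipocalins (Lcn), 5 ribonuclease A family genes (Rnase), 4 cysteine-rich secretory proteins (Crisp) and 3 Kazal-type serine protease inhibitors (Spink). A gene belonged to it when the array annotation named it by its family name and a number, and its brightest probe stood for it. This gave 48 of 27962 gene names on the array, read by 53 of 41174 non-control probes. The name rule itself used no measured value, but the set was chosen with earlier results of these data known. The brightest probe was picked by its mean signal over all arrays. Total RNA of C57BL/6 mouse testis was hybridized to Agilent single-colour arrays with probes of 60 bases. The samples were 3 Glis3KO2 and 3 WT testes at 4 weeks and 4 Glis3KO2 and 4 WT testes at 1 week. Glis3KO2 is the genotype label of mice with a disrupted gene for Glis3, a Krüppel-like zinc finger transcription factor. The labels do not describe the allele further, name no other allele or treatment in either genotype, and say that pups stayed with their mothers. The series description gives 3 weeks for the older mice, and the sample labels, which give 4 weeks, were followed. No label states whether the samples of a group came from separate animals, and p-values here reflect only their spread.

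The epididymis is the duct in which sperm leaving the testis mature. Its epithelium secretes beta-defensins, small cationic antimicrobial peptides that also coat sperm, lipocalins, which carry small hydrophobic ligands, and CRISP proteins, which bind to the sperm surface. Several members of the same families are made inside the testis instead: Spink2 and Crisp2 are acrosomal proteins of germ cells, and Defb19 is a defensin of the Sertoli cell. A dissected testis can bring along a stretch of duct, so a family member measured in testis RNA may come from either organ.

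Every level below is a log2 signal relative to the 75th percentile of the array, so that a level of 0 is the signal that 75% of its probes stay under. Levels of different probes are not set against each other. The scanner software judged 74.3% to 86.6% of non-control spots to be well above background, depending on the array. The 1-week arrays lay on slides 1 to 3 and the 4-week arrays on slides 4 and 5, so age and slide cannot be told apart. The only array on slide 3, 1-week Glis3KO2 replicate 4, had another scan day. Glis3 itself was well above background on 0 of 4 Glis3KO2 and 4 of 4 WT arrays at 1 week. Its signal was at least 4.25-fold lower in Glis3KO2 against the lowest signal measured above background (limma adjusted p = 0.00571; exact two-sided permutation p = 0.0286, the smallest that 4 against 4 arrays allow). The fitted log2 difference depended on how background was treated, at -3.17 as processed by the scanner software and -0.46 with another correction (normexp, exact permutation p = 0.143). At 4 weeks Glis3 was above background on 0 of 3 arrays of either genotype.

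Of the 48 genes, 25 were well above background on all arrays of at least 1 group, and 11 on all arrays of every group. Another 9 were above background on no array: Crisp3, Defb5, Defb10, Defb12, Defb50, Lcn4, Lcn5, Lcn8 and Lcn13. Lcn5, the retinoic acid-binding lipocalin of the epididymis, and Lcn8, its epididymal relative, were thus among those never measured. Lcn3 was flagged above background only on 4-week Glis3KO2 replicate 1, where its spot was left out as non-uniform. By group, 20 genes were above background on all arrays of 4-week Glis3KO2 and 23 on all arrays of 4-week WT. At 1 week the number was 16 in Glis3KO2 and 16 in WT. In the map of all 48 genes, signals stand above background for Defb19, Defb36, Rnase4 and Spink2 on every array, for Crisp2 and Defb14 mainly at 4 weeks, and for Defb42 and Defb6 mainly at 1 week.

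**Figure D1:**
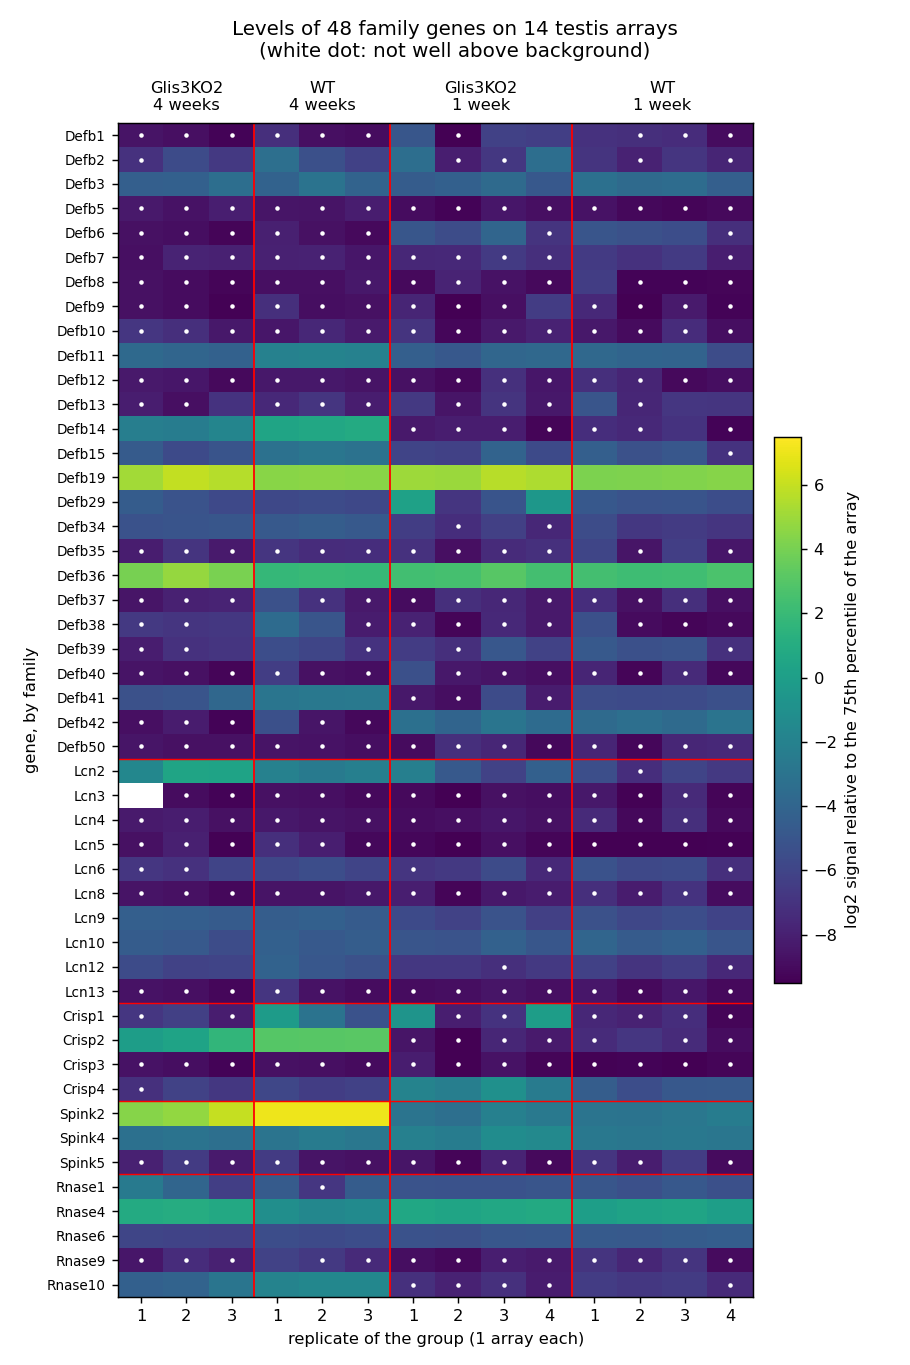
Log2 signal relative to the 75th percentile of the array for 48 family genes (rows, by family) on 14 arrays (columns, by group and replicate); white dots mark signals not well above background, and the white cell is a spot left out as non-uniform. Spink2, Crisp2 and Defb14 are brightest in 4-week WT, Crisp4 in 1-week Glis3KO2, and Crisp1 stands out on 1-week Glis3KO2 replicates 1 and 4 and 4-week WT replicate 1.

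The first comparison asked what changed in the 4-week testis without Glis3. Spink2, Crisp2, Defb14, Rnase10, Defb41, Defb11 and Defb15 were all about 4 to 7 times lower in Glis3KO2, while Defb36 and Rnase4 were about 5 times and Defb19 about 2 times higher. In the limma fit of 21331 genes, 24 of the 48 members passed the filter on low signals. Of these, 4 rose and 11 fell at an adjusted p under 0.05, against 35.2% of all tested genes called higher and 33.9% called lower. The median log2 difference was -0.50 over the 24 members and 0.03 over all tested genes. Since members could pass the filter through the group in which they were high, these counts describe the set and test nothing about it.

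The 60-base probes of the 3 genes named first are shown because their groups stood clearly apart. On mm7 they lie at chr5:77136506-77136565 (minus strand, Spink2), chr17:38826827-38826886 (minus strand, Crisp2) and chr8_random:1797591-1797650 (plus strand, Defb14).
Spink2: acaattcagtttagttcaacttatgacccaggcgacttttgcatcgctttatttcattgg
Crisp2: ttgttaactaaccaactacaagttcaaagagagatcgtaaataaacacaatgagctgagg
Defb14: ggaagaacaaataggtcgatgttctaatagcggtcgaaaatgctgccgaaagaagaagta

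Spink2, the acrosomal protease inhibitor, read 4.44, 4.72 and 6.00 in 4-week Glis3KO2, against 7.04, 7.10 and 7.10 in 4-week WT. All Glis3KO2 arrays lay below all WT arrays, and replicate 3 lay nearest to WT. This was a 4.08-fold fall, or -2.03 in log2 (SE 0.39, limma adjusted p = 0.00346). Crisp2, a CRISP protein of the acrosome and sperm tail, read -0.01, 0.33 and 1.69 in Glis3KO2, against 3.02, 3.06 and 3.12 in WT. The groups were again apart, with the same Glis3KO2 replicate nearest to WT, and the difference was -2.39 (SE 0.42, limma adjusted p = 0.00247).

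Defb14, the mouse counterpart of human beta-defensin 3, read -2.24, -2.39 and -1.77 in Glis3KO2, against 0.45, 0.68 and 0.87 in WT. Its log2 difference of -2.80 (SE 0.21, limma adjusted p = 0.000491) was a 6.97-fold fall. Rnase10, a secreted member of the ribonuclease A family known from the proximal epididymis, read -4.31, -4.07 and -2.89 in Glis3KO2 and -1.93, -1.64 and -1.65 in WT. Glis3KO2 replicate 3 was once more the array nearest to WT, and the difference was -2.01 (SE 0.37, limma adjusted p = 0.00283).

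Defb41, a defensin described in the epididymis, read -5.30, -5.08 and -3.82 in 4-week Glis3KO2, against -2.86, -2.71 and -2.65 in 4-week WT. The groups were apart, with a log2 difference of -2.00 (SE 0.38, limma adjusted p = 0.0033). Defb11 read -3.68, -3.98 and -4.22 in Glis3KO2, against -2.00, -1.92 and -2.04 in WT. Its difference was -1.97 (SE 0.18, limma adjusted p = 0.00055), and here Glis3KO2 replicate 3 was the lowest array.

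Defb15 read -4.63, -5.66 and -5.10 in Glis3KO2, against -3.19, -2.85 and -3.10 in WT, a log2 difference of -2.08 (SE 0.27, limma adjusted p = 0.00102). Its probe matches that of Defb34 at 54 of 60 bases, the closest pair of member probes, so cross-hybridization between them was possible and was not tested. The next closest pair, Defb39 and Defb40, matches at 38. Defb34 read -5.25, -5.07 and -4.93 in Glis3KO2 and -4.75, -4.52 and -4.76 in WT, a difference that did not pass (log2 -0.40, SE 0.16, limma adjusted p = 0.0546). Capitals mark the 6 bases that differ between the probes, drawn on mm7 at chr8:20712854-20712913 (minus strand, Defb15) and chr8:19103075-19103134 (plus strand, Defb34).
Defb15: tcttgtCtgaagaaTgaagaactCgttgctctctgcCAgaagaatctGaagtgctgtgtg
Defb34: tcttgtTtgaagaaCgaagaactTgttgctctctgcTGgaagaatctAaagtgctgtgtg

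**Figure D2:**
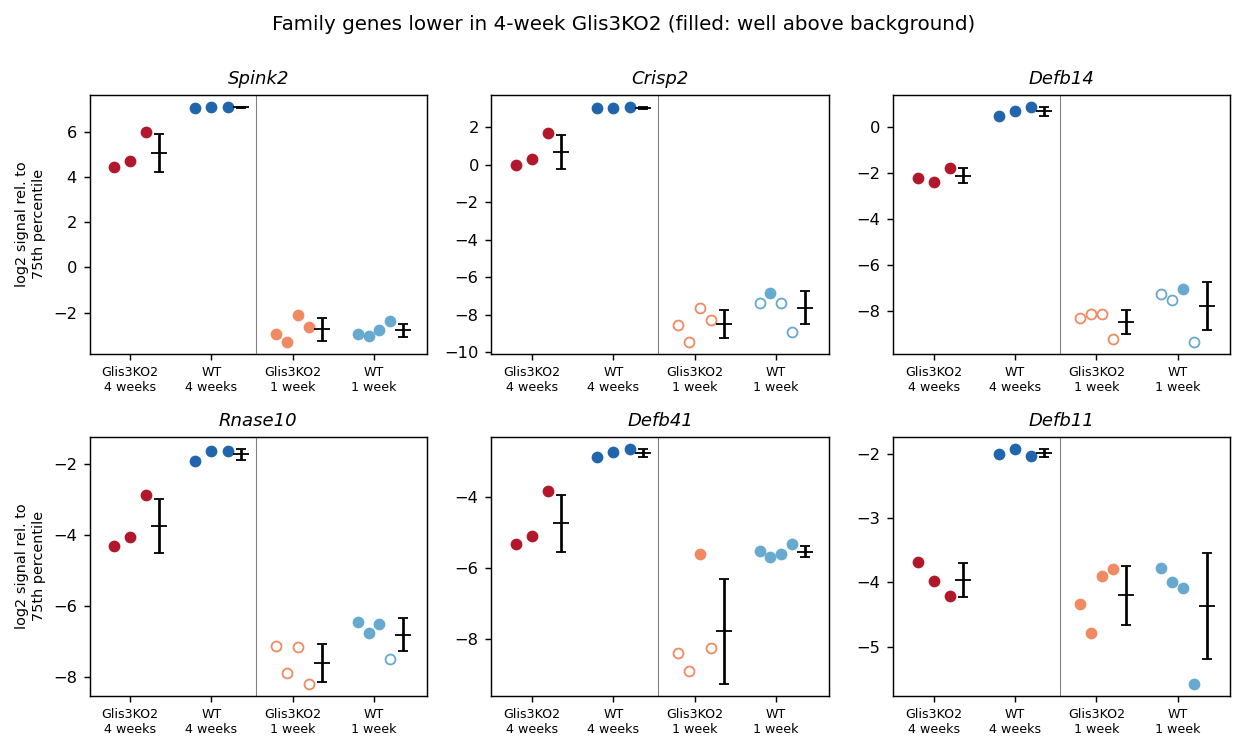
Log2 signal relative to the 75th percentile for 6 genes that fell in 4-week Glis3KO2 (each point 1 array, filled where well above background; black marks give the mean and SD of each group). In all 6 panels the 3 Glis3KO2 arrays at 4 weeks lie below the 3 WT arrays.

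The remaining falls were smaller or rested on dim probes. Lcn12, an epididymal lipocalin, read -5.62, -6.16 and -6.01 in Glis3KO2, against -4.13, -4.91 and -5.26 in WT. It differed by -1.16 in log2 (SE 0.31, limma adjusted p = 0.0138), and the call was lost with normexp (adjusted p = 0.357) and without Glis3KO2 replicate 2 (adjusted p = 0.0551). Lcn6 differed by -0.83 (limma adjusted p = 0.0479) with overlapping groups and lost its call in 11 of 17 alternatives. Rnase6, a ribonuclease of leukocytes, differed by -0.49 (limma adjusted p = 0.0196) and lost it in 5 of 17. For both, the normexp value was slightly above 0.

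The other direction held 4 genes, and 2 of them lie close together on chromosome 2. Their probes were drawn at chr2:152345379-152353373 (plus strand, Defb36, a span longer than the probe, which is therefore split on the genome) and chr2:152317056-152317115 (minus strand, Defb19) of mm7. They are shown because their genes are the defensins that rose. Capitals mark the best match of the Defb19 probe to the repeated telomeric unit CCCTAA, which is taken up with the 1-week results below.
Defb36: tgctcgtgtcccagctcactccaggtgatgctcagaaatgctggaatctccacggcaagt
Defb19: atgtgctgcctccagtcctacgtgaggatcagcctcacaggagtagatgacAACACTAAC

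Defb36 read 4.04, 4.79 and 4.06 in 4-week Glis3KO2, against 1.85, 1.96 and 1.91 in 4-week WT. All Glis3KO2 arrays were above all WT arrays, with a log2 difference of 2.39 (SE 0.23, limma adjusted p = 0.000572), a 5.23-fold rise. Defb19, the Sertoli cell defensin, read 5.17, 5.94 and 5.62 in Glis3KO2, against 4.48, 4.52 and 4.48 in WT. The groups were apart by a smaller step, with a log2 difference of 1.08 (SE 0.21, limma adjusted p = 0.00386), and a second Defb19 probe gave 1.02. Rnase4, a secreted ribonuclease that shares its locus with angiogenin, read 0.91, 1.06 and 0.79 in Glis3KO2, against -1.09, -1.64 and -1.37 in WT. Its difference was 2.28 (SE 0.19, limma adjusted p = 0.000518), with 2.21 on its second probe.

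Lcn2, the siderophore-binding lipocalin of neutrophils and inflamed epithelia, read -1.63, 0.43 and 0.34 in 4-week Glis3KO2, against -2.01, -2.47 and -2.19 in 4-week WT. Glis3KO2 replicate 1 lay close to WT, and the log2 difference of 1.94 (SE 0.54, limma adjusted p = 0.0165) lost its call in 4 of 17 alternatives. These were the joint fit of all arrays (adjusted p = 0.0551) and the fits without WT replicate 2, Glis3KO2 replicate 2 or Glis3KO2 replicate 3 (adjusted p of 0.0542, 0.0637 and 0.0535). Among 10 listed macrophage and neutrophil genes, 8 were tested at 4 weeks, of which 5 rose and 0 fell. The shares over all tested genes were 35.2% higher and 33.9% lower. Of the neutrophil genes listed, S100a8 and Ngp were at background on every 4-week array. S100a9 read -3.80, -5.15 and -4.75 in Glis3KO2, against -5.77, -5.78 and -5.87 in WT. Camp and Ltf overlapped between the genotypes. The part of macrophages or neutrophils in the Lcn2 difference was not tested.

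Crisp1, the androgen-dependent epididymal protein that coats sperm, had the widest difference and the widest spread. It read -6.80, -6.28 and -8.17 in Glis3KO2, above background on 1 of 3 arrays, against -0.18, -3.05 and -5.19 in WT, above background on 3 of 3. The groups did not overlap, but WT replicate 1 exceeded WT replicate 3 by about 5 log2 units. The genotypes differed by -4.28 in log2 (SE 1.21, limma adjusted p = 0.0168), and by -2.96 without WT replicate 1 (adjusted p = 0.0195). The call was lost with normexp (-2.09, adjusted p = 0.0726), in the joint fit of all arrays (adjusted p = 0.0616) and without Glis3KO2 replicate 3 (-3.73, adjusted p = 0.0585).

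**Figure D3:**
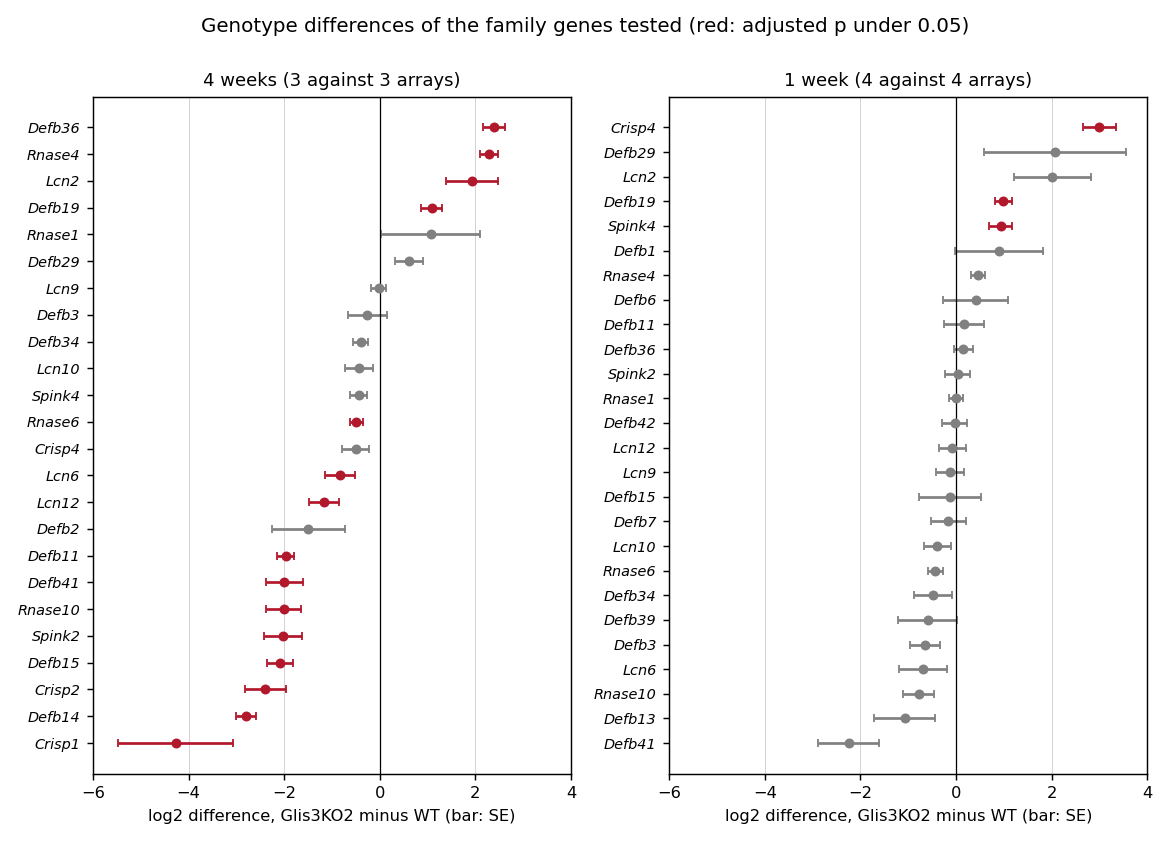
Log2 difference, Glis3KO2 minus WT, with its standard error for the members tested at 4 weeks (left, 24 genes) and at 1 week (right, 26 genes); red points passed an adjusted p under 0.05. At 4 weeks 11 genes lie below 0 in red and 4 above; at 1 week the 3 red points are Crisp4, Defb19 and Spink4.

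Cell type markers moved at 4 weeks in the same groups. Over all tested genes at this age, 35.2% were called higher and 33.9% lower. All 7 listed pachytene spermatocyte genes, all 8 round spermatid genes and all 7 elongating spermatid genes were lower in Glis3KO2, with median log2 differences of -2.14, -2.55 and -2.99. The summed linear signal of the elongating spermatid genes was 64.7 to 167 in Glis3KO2 and 632 to 934 in WT. Of 11 Sertoli cell genes, 10 were higher and 0 lower (median 2.03), with summed signals of 180 to 249 in Glis3KO2 and 72.2 to 75.1 in WT. The part of these shifts in the defensin, CRISP and SPINK differences was not tested, and in whole testis fewer cells of a type and less RNA per cell cannot be told apart. Of the 17 listed epididymal members on the array, 11 were tested, 0 rose and 6 fell. List genes could pass the filter through the group in which they were high, so these counts describe the lists only. The summed signal of all 17 was 0.341 to 0.434 in Glis3KO2 and 0.841 to 1.73 in WT, where the top value belonged to replicate 1. The largest single part of that top value was Crisp1, at -0.18 in log2. The other lists were mixed at this age. Of the 13 listed epididymal genes that are not members, 8 were tested, 2 rose and 3 fell (median -0.14). Of 11 efferent duct and Wolffian genes, 3 rose and 4 fell (median 0.24), and of 7 Leydig cell genes, 1 rose and 3 fell (median -0.75).

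The second comparison asked the same of the 1-week testis, before pachytene spermatocytes and spermatids have formed. Crisp4 was about 8 times higher in Glis3KO2 and Defb19 and Spink4 about 2 times. Of 26 members tested among 22685 genes, 3 rose, against 3.95% of all tested genes called higher, and 0 fell, against 6.16% called lower. At an unadjusted p under 0.05, 8 of the 26 members differed, against 36.1% of all tested genes. The number of all genes called at this age rested on single arrays: it was 2294 in all, between 370 and 3568 without single WT replicates, and 585 and 852 without Glis3KO2 replicates 1 and 4 in turn. The median log2 difference was -0.05 over the members and -0.07 over all tested genes.

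Crisp4, a CRISP protein known from the mouse epididymis, read -1.90, -2.23, -0.97 and -2.45 in 1-week Glis3KO2, against -4.49, -5.45, -4.82 and -4.76 in 1-week WT. Every Glis3KO2 array was above every WT array. This was a 7.98-fold rise, or 3.00 in log2 (SE 0.34, limma adjusted p = 0.00471). It was called in all 19 alternatives, with differences of 2.31 to 3.28 and adjusted p of 0.000236 to 0.0359, and was 3.22 within slide 1 and 2.88 within slide 2. Unlike Crisp1 below, Crisp4 was not highest on Glis3KO2 replicates 1 and 4, and without them the difference was 3.28 (adjusted p = 0.0359).

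The sequence of the Crisp4 probe holds a short match to the telomeric repeat. It was drawn over chr1:18304934-18311974 of mm7 (minus strand), a span longer than the probe. Capitals mark this short match, where the repeat is the unit CCCTAA written over and over.
Crisp4: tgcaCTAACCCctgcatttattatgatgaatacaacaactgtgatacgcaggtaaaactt

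The best ungapped match of this probe to the repeat scored 7, counting 1 for a match and -1 for a mismatch. At 1 week, 11.3% of 944 tested genes whose probes scored at least 7 were called higher in Glis3KO2, against 3.63% of 21741 other genes. At 4 weeks the shares were 28.5% of 870 and 35.5% of 20461. Among the members only Crisp4, Defb19 and Defb11 reached a score of 7, and both probes of Defb19 did. Crisp4 has 1 probe on the array. The Glis3 probe, read above as a check of the genotype, also scored 7. The part of the repeat in the Crisp4, Defb19 and Glis3 differences was not tested.

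Defb19 read 4.98, 4.95, 5.65 and 5.40 in 1-week Glis3KO2, against 4.11, 4.19, 4.27 and 4.44 in 1-week WT. The groups did not overlap, and the genotypes differed by 0.99 in log2 (SE 0.18, limma adjusted p = 0.0236), with 0.93 on the second probe. The call was lost in 7 of 19 alternatives, among them slide as a block (0.93, adjusted p = 0.0988) and the fit without Glis3KO2 replicates 1 and 4 (1.04, adjusted p = 0.121). Of 11 Sertoli cell genes, 5 were higher at this age and 0 lower, against 3.95% and 6.16% of all tested genes. Their summed signal was 232 to 327 in Glis3KO2 and 157 to 180 in WT.

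Spink4, a protease inhibitor known from intestinal goblet cells, read -2.12, -2.37, -1.25 and -1.50 in 1-week Glis3KO2, against -2.69, -2.82, -2.67 and -2.80 in 1-week WT. It differed by 0.94 in log2 (SE 0.24, limma adjusted p = 0.0485), and it lost its call in 12 of 20 alternatives, with adjusted p up to 0.191. The members just short of the threshold included Defb41, which read -8.40, -8.88, -5.59 and -8.23 in Glis3KO2 and -5.52, -5.67, -5.59 and -5.33 in WT. It was above background on 1 of 4 Glis3KO2 arrays and 4 of 4 WT arrays. Its difference was -2.25 (SE 0.65, limma adjusted p = 0.0583), and without Glis3KO2 replicate 3 it was -2.98 (adjusted p = 0.00188).

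**Figure D4:**
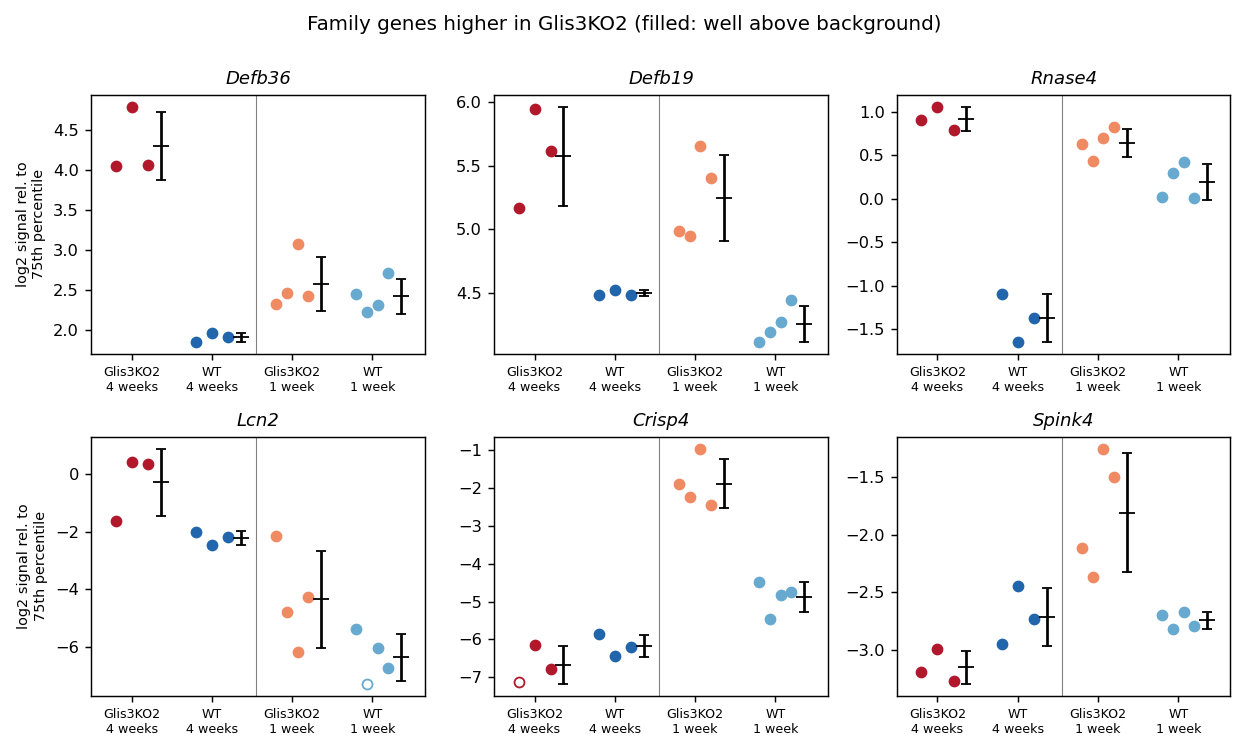
Log2 signal relative to the 75th percentile for 6 genes that rose in Glis3KO2 at 4 weeks (Defb36, Defb19, Rnase4, Lcn2) or at 1 week (Defb19, Crisp4, Spink4); each point is 1 array, filled where well above background, and black marks give the mean and SD. The 4-week Glis3KO2 arrays of Defb36 and Rnase4 lie above those of WT by more than 2 log2 units on average, while at 1 week the genotypes overlap for Defb36.

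A different pattern ran through single arrays. Crisp1 read -0.69, -8.08, -6.99 and -0.00 in 1-week Glis3KO2, against -7.63, -7.89, -7.29 and -9.26 in 1-week WT. It was at background on all WT arrays and on Glis3KO2 replicates 2 and 3, and well above it on replicates 1 and 4. With only 2 arrays of the group above background it did not pass the filter and was not tested at this age. The probes of Crisp1 and Defb29 are shown because these genes mark the same arrays; on mm7 they were drawn at chr17:38338660-38341800 (minus strand, a split span) and chr2:152279702-152279761 (minus strand).
Crisp1: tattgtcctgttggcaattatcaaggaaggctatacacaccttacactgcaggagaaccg
Defb29: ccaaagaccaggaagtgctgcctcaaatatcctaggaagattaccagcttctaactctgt

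Defb29, a defensin of the chromosome 2 cluster, read 0.22, -6.85, -5.09 and -0.53 in 1-week Glis3KO2, against -4.84, -5.13, -5.07 and -5.45 in 1-week WT. The same replicates 1 and 4 were high, and the log2 difference of 2.06 did not pass (SE 1.49, limma adjusted p = 0.329) and was -0.85 without them (adjusted p = 0.323). Defb2, an inducible epithelial defensin, read -3.33, -8.05, -6.74 and -3.37 in Glis3KO2 and -6.95, -7.89, -6.90 and -7.76 in WT. Defb1, an epithelial defensin made constitutively, was above background on Glis3KO2 replicates 1, 3 and 4, at -4.92, -6.18 and -6.35, and on WT replicate 1, at -7.05.

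The accessions of the array placed 8 further genes in these families under other names, and 3 of them, picked after their values were seen, showed the same arrays. Spink8 (named C630041L24Rik on the array) read 0.24, -9.32, -8.47 and 0.73 in 1-week Glis3KO2, against -6.52, -9.12, -6.71 and -9.03 in 1-week WT. Spink12 (9230117E20Rik) was above background on 1-week Glis3KO2 replicates 1 and 4 alone among the 14 arrays, at -0.39 and -2.07. Both are protease inhibitors known from the epididymis. Defb20 (9230107O10Rik), a defensin of the epididymis, read -3.44, -6.47, -6.42 and -4.75 in Glis3KO2, against -5.78, -6.16 and -6.02 on the 3 WT arrays whose spot was kept. The other further genes did not show this pattern. Among 1-week Glis3KO2 arrays, Defb22 (9230002F21Rik) was lowest on replicate 1, at -6.63, but highest on replicate 4, at -4.43. Spink10 (A230091H23Rik) was lowest on replicate 1, and Rnase2a (Ear11) on replicate 4. Spink6 (LOC433180) and Rnase2b (Ear5) were at background on every array.

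**Figure D5:**
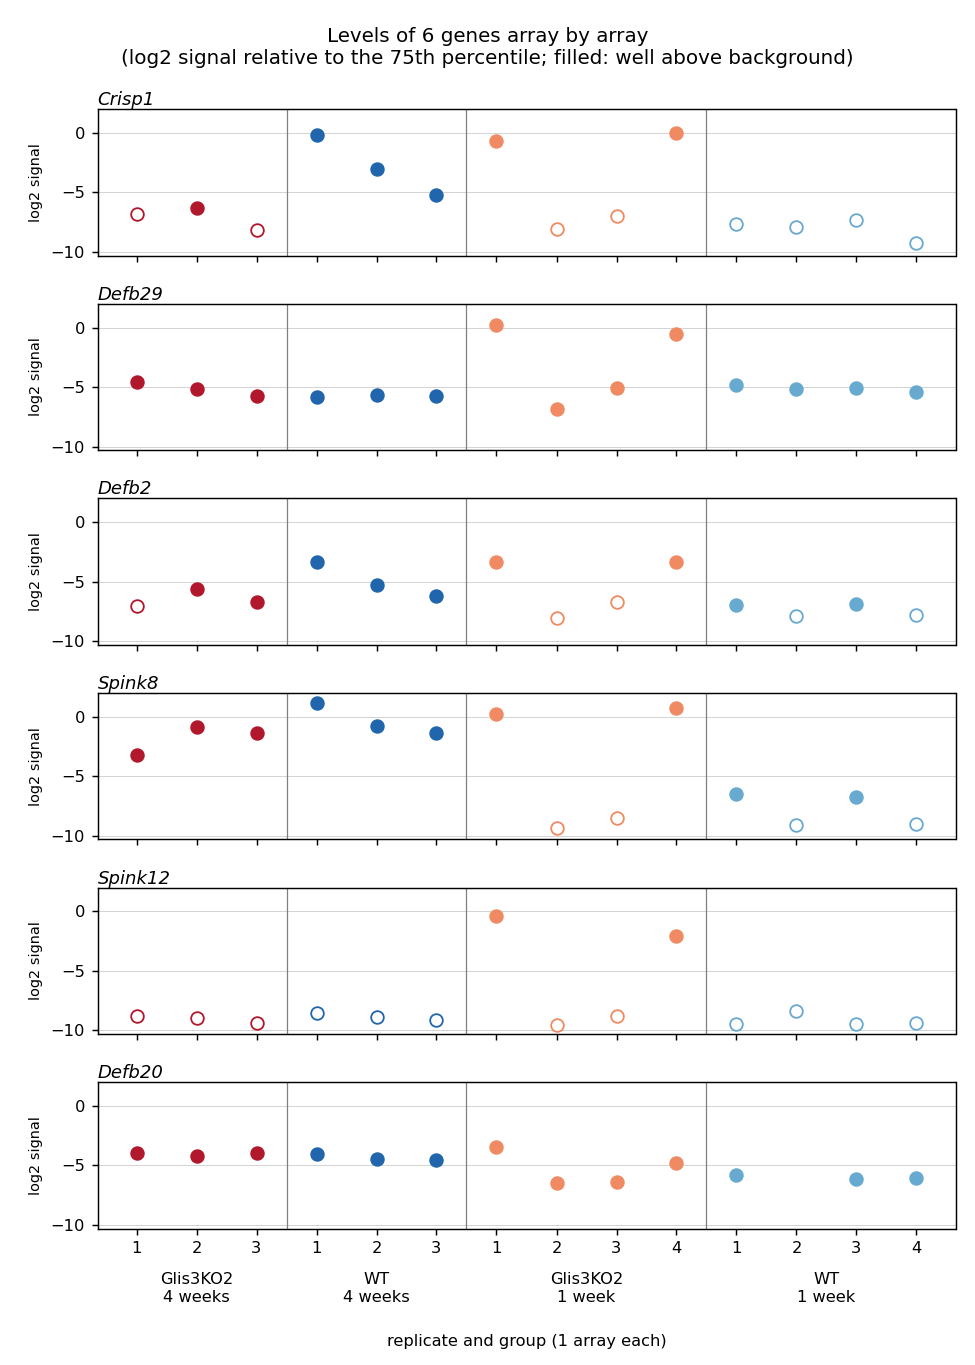
Log2 signal relative to the 75th percentile on each of the 14 arrays for Crisp1, Defb29, Defb2, Spink8, Spink12 and Defb20 (filled points well above background; 1 Defb20 spot was left out as non-uniform). In all 6 panels the 2 highest 1-week Glis3KO2 arrays are replicates 1 and 4, and among the 4-week WT arrays Crisp1, Defb2 and Spink8 are highest on replicate 1.

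At 4 weeks the array that stood apart was WT replicate 1. Crisp1 read -0.18 there, next -3.05, and Defb2 -3.31, next -5.32. Defb42, at background on every other 4-week array, read -5.35. Of 13 listed epididymal genes outside the families, 3 were above background on WT replicate 1 alone among all 14 arrays: Adam7 at -4.34, Gpx5 at -5.40 and Abcb5 at -6.37. Adam7 is a sperm-coating metalloprotease relative and Gpx5 a secreted peroxidase of the epididymis. These 3 were thus at background on 1-week Glis3KO2 replicates 1 and 4. Ros1, another gene of this list, was above background on only 1 of the 1-week arrays, Glis3KO2 replicate 1, at -6.34. Teddm1, Spint4, Lcn5 and Lcn8 were at background on every array.

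The summed signal of the 17 listed epididymal members was 0.395 to 1.45 in 1-week Glis3KO2 and 0.306 to 0.423 in 1-week WT. Of the 13 listed genes that are not members, 6 were tested at 1 week, 4 rose and 0 fell. The shares over all tested genes were 3.95% higher and 6.16% lower. The summed signal of the 13 was 13.9, 12.5, 19.4 and 16.0 on Glis3KO2 replicates 1 to 4 and 7.92 to 9.67 in WT. Cst8, Spinlw1, Wfdc2 and Cst11 made up 99.2% to 99.5% of it in Glis3KO2 and 98.0% to 99.0% in WT, and 6 of the 13 genes were at background on every 1-week Glis3KO2 array. The 11 efferent duct and Wolffian genes summed to 0.961 to 1.51 in Glis3KO2 and 1.05 to 1.30 in WT, with 0 called higher and 1 lower. Whether tissue from outside the testis took part in the Crisp1, Defb29 and Defb2 signals was not tested. Without these replicates 1 and 4, 1 member was called higher at 1 week (Crisp4) and 0 lower.

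In all, 8 members had an array well above background and at least 2 log2 units above the rest of its group. Besides Crisp1, Defb2 and Defb42 on 4-week WT replicate 1 and Defb41 on 1-week Glis3KO2 replicate 3, these were Defb40 and Lcn2 on 1-week Glis3KO2 replicate 1, and Defb8 and Defb38 on 1-week WT replicate 1. Defb40 read -5.34 on its array, against -8.39 on the next highest. Lcn2 read -2.15, -4.78, -6.18 and -4.27 in 1-week Glis3KO2, against -5.39, -7.28, -6.04 and -6.71 in 1-week WT, and its difference of 2.01 did not pass (SE 0.80, limma adjusted p = 0.117).

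Between the ages, the acrosomal members Spink2 and Crisp2 rose in WT testes, while defensins were called in both directions, 6 higher and 5 lower at 4 weeks. Of 29 members tested among 23682 genes, 13 were higher at 4 weeks, against 31.1% of all tested genes, and 8 lower, against 49.8%. The median log2 difference was 0.18 over the members and -0.51 over all tested genes. Spink2 read 7.04, 7.10 and 7.10 at 4 weeks, against -2.94, -3.01, -2.78 and -2.38 at 1 week, a log2 difference of 9.86 (SE 0.16, limma adjusted p = 2.18e-08). The fitted differences of Crisp2 (10.69) and Defb14 (8.45) rest on 1-week WT signals of which 1 of 4 was above background, so they are not measured folds. Rnase10 differed by 5.07, Defb41 by 2.79, Defb11 by 2.37, Defb15 by 2.32 and Defb34 by 1.74. Rnase10 and Defb15 were above background on 3 of 4 1-week WT arrays, so their values include a reading at background.

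Crisp1 was above background on all 4-week and no 1-week WT arrays, at least 21.3-fold higher at 4 weeks against the lowest signal measured above background. The other WT members that rose were Lcn2 (4.13), Defb2 (2.42), Lcn12 (2.02) and Lcn9 (1.23). At 1 week Defb2 was above background on 2 of 4 WT arrays, and Lcn2 and Lcn12 on 3 of 4. The values of these 3 thus include readings at background. The WT members that fell were led by Defb42, an epididymal defensin. It was above background on 1 of 3 arrays at 4 weeks and 4 of 4 at 1 week. Its fitted log2 difference of -4.31 (SE 0.87, limma adjusted p = 0.0027) includes 2 readings at background and is not a measured fold. Defb6 was at least 1.83-fold lower, since it was above background on 0 of 3 arrays at 4 weeks and 3 of 4 at 1 week. Rnase4 (-1.56), Crisp4 (-1.28), Rnase6 (-0.95), Defb29 (-0.63) and Defb36 (-0.51) also fell. Defb7 was called lower, but it was above background on 0 of 3 arrays at 4 weeks, too close to the detection limit for a fold, and it lost its call in 7 of 14 alternatives. Defb2 and Defb29 lost theirs in the joint fit of all arrays, and Lcn9 when its probes were averaged.

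Glis3KO2 testes showed 10 members higher and 5 lower at 4 weeks than at 1 week, of 25 tested among 21729 genes, against 23.7% and 28.9% of all tested genes. The median log2 difference was 0.33 over the members and -0.14 over all tested genes. Spink2 read 4.44, 4.72 and 6.00 at 4 weeks, against -2.95, -3.29, -2.11 and -2.62 at 1 week, a log2 difference of 7.79 (SE 0.41, limma adjusted p = 2.58e-06). Crisp2 was at least 197-fold, Defb14 at least 28.2-fold and Rnase10 at least 9.18-fold higher at 4 weeks, each at background on all 1-week Glis3KO2 arrays. Lcn2 (4.06), Defb41 (3.04), Defb34 (1.81), Defb36 (1.72), Lcn9 (1.34) and Lcn12 (0.93) also rose. At 1 week Defb41, Defb34 and Lcn12 were above background on 1, 2 and 3 of 4 Glis3KO2 arrays. Their values thus include readings at background and are not measured folds.

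Among the Glis3KO2 members that fell, Crisp4 differed by -4.79 between 4 weeks and 1 week (SE 0.38, limma adjusted p = 1.75e-05). Defb42 was at least 10.4-fold and Defb6 at least 2.69-fold lower at 4 weeks. Spink4 (-1.35) and Rnase6 (-1.01) completed the list. Defb36 thus rose with age in Glis3KO2 and fell with age in WT, though in WT the fall was not called under median scaling (-0.38, adjusted p = 0.0903). With normexp the Glis3KO2 calls of Defb41, Defb34, Lcn9, Lcn12, Defb6 and Rnase6 were lost. Defb41 also lost its call without 1-week Glis3KO2 replicates 1 and 4 (2.50, limma adjusted p = 0.0542).

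The difference between the genotype effects, 4-week minus 1-week, was tested in 1 fit of all 14 arrays over 23761 genes. Of 30 members tested, 2 had a higher difference at 4 weeks, against 29.4% of all tested genes, and 6 a lower one, against 21.6%. The median was -0.70 over the members and 0.25 over all tested genes. The higher ones were Defb36 (2.23, SE 0.31, limma adjusted p = 0.000162) and Rnase4 (1.83, SE 0.23, limma adjusted p = 9.59e-05). At 1 week Defb36 read 2.33, 2.47, 3.08 and 2.42 in Glis3KO2, against 2.45, 2.22, 2.30 and 2.72 in WT, and the genotypes overlapped. Rnase4 read 0.63, 0.43, 0.69 and 0.82 in 1-week Glis3KO2, against 0.03, 0.30, 0.43 and 0.01 in 1-week WT.

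Spink2 (-2.07), Defb11 (-2.13) and Defb14 (-2.12) had a lower genotype difference at 4 weeks than at 1 week. Defb14 was above background on 0 of 4 Glis3KO2 and 1 of 4 WT arrays at 1 week, so the size of its value is not a measured quantity. At 1 week Spink2 differed by 0.04 between the genotypes. Crisp4 (-3.51) and Spink4 (-1.38) changed from higher in Glis3KO2 at 1 week to differences at 4 weeks of -0.51 and -0.44 that did not pass. Crisp1 was also called (fitted value -8.35, SE 2.55, limma adjusted p = 0.0156, and -4.76, adjusted p = 0.0257, without 1-week Glis3KO2 replicates 1 and 4). It was at background on 2 of 3 and 2 of 4 Glis3KO2 arrays and on 4 of 4 1-week WT arrays, so the size of this value is not a measured quantity. Defb19, higher in Glis3KO2 at both ages, had a difference of 0.09 between its genotype effects (limma adjusted p = 0.817).

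Defb3, Lcn9, Lcn10 and Rnase1 were also above background on every array of some group and had no call between genotypes at either age. Lcn9 is an epididymal lipocalin, and its log2 difference was -0.02 at 4 weeks (SE 0.16) and -0.13 at 1 week (SE 0.28). Defb3, an epithelial defensin, read -4.37, -4.31 and -3.34 in 4-week Glis3KO2, against -4.18, -3.00 and -4.07 in 4-week WT. Lcn10, an epididymal lipocalin, read -4.56, -4.72 and -5.56 in Glis3KO2, against -4.27, -4.75 and -4.51 in WT. Rnase1, the pancreatic-type ribonuclease, read -2.57, -3.93 and -6.32 in 4-week Glis3KO2, against -4.61, -6.82 and -4.58 in 4-week WT, with overlapping groups. Its probes did not show the same direction: the brightest gave a log2 difference of 1.06 at 4 weeks and the other -0.51.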

How the data were processed

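Testis total RNA was measured on single-colour Agilent arrays, 1 array per sample. The intensity values (background-corrected processed signal) and the other spot columns used, flags for spots well above background, saturated or non-uniform, were deposited as made by the authors with Agilent Feature Extraction 9.5, per the submitters' processing notes. The precision is limited by the number of arrays. Here each log2 processed signal was taken relative to its array's 75th percentile over non-control probes. Non-uniform spots were left out, spots of a probe were averaged, and a gene was read by its brightest probe. Genes entered a test when at least 3 arrays of 1 group were well above background, with limma 3.58.1 in R 4.3.3 (lmFit, eBayes) over all such genes, Benjamini-Hochberg adjusted, at 0.05. Glis3 alone was also tested by exact permutation (SciPy 1.17.1). The procedure was tested on simulated data.

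Groups followed the genotype and age labels. Genes were named if called (up to 15 per direction and comparison), if 1 array stood at least 2 log2 units above its group, or as epididymal or well-measured members. Coordinates are those of the array files (mm7), without annotation of exons or UTRs. The members and marker lists were chosen with earlier results of these data known. Alternatives were median scaling, quantile normalization, normexp with an offset of 50, other filters, the mean of all probes, slide and replicate blocks, trend and robust moderation, 1 fit of all arrays and leaving out each replicate or 1-week Glis3KO2 replicates 1 and 4 together. Leaving out probes that match the telomeric repeat, and leaving out those replicates from the age and difference comparisons, were added after seeing the data.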

Additional observations from a re-analysis of the deposited data

Results flagged for a closer look

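Among 61 groups of 4 arrays screened for a single distant value, 5 had one, and chance gives about 1 in 20 groups. Defb8 read -6.40 on 1-week WT replicate 1, with the other WT arrays between -9.37 and -9.24, and Defb38 read -5.35 on the same array, with the others between -9.26 and -8.99. Defb40 read -5.34 on 1-week Glis3KO2 replicate 1, with the others between -8.79 and -8.39. The low values were Defb1 on 1-week WT replicate 4 (-8.93, others -7.32 to -7.05) and Lcn12 on 1-week Glis3KO2 replicate 3 (-7.21, others -6.76 to -6.71), both below the background criterion on that array.

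For 8 members the genotype effect itself differed between the ages in the limma fit of all arrays. The differences, 4-week effect minus 1-week effect, were 2.23 for Defb36 and 1.83 for Rnase4. They were -8.35 for Crisp1, -3.51 for Crisp4, -2.13 for Defb11, -2.12 for Defb14, -2.07 for Spink2 and -1.38 for Spink4. Each kept its call and direction in every alternative run on it. For Crisp1, 3 of the 4 groups held arrays at background, so its size is not a measured quantity, and the value was -4.76 without 1-week Glis3KO2 replicates 1 and 4. The size for Defb14 is not a measured quantity either, as it was above background on 0 of 4 Glis3KO2 and 1 of 4 WT arrays at 1 week.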

How the results depend on the processing

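Members near background have no measured fold, and the cause of the shifts below was not tested. With normexp, 7 instead of 11 members were called lower at 4 weeks, 6 instead of 10 higher and 3 instead of 5 lower with age in Glis3KO2, and Glis3 differed by -0.46 at 1 week (exact permutation p = 0.143) and 0.21 at 4 weeks (p = 0.7). Lcn6 (0.01) and Rnase6 (0.07) turned direction at 4 weeks with it. Defb41 gained a difference of effects of -0.93, opposite in sign to its main value, which was not called. At 1 week, 1 member instead of 3 was called higher with a slide or replicate block or without Glis3KO2 replicates 1 and 4. It was 1 to 3 when single replicates were left out. Leaving out telomeric-repeat probes also left 1 (Spink4). This removed Crisp4 and Defb19 themselves, so it says nothing about their calls. Called lower at 1 week were 2 in 1 fit of all arrays, 1 under the stricter filter or trend moderation, and 0 to 1 without single replicates, against 0. Members with a lower difference of effects numbered 11 with median scaling, 10 with normexp and 11 with quantile normalization, against 6. Between WT ages Defb19 became -0.29 with quantile normalization, against 0.24, and Rnase1, at -0.20, ranged from -0.58 to 0.54 when single replicates were left out. Same-numbered samples did not deviate together (correlations of -0.18 to 0.12 over 7 pairs). Over all genes, 2294 were called at 1 week, against 397 with the replicate block, 504 with slide as a block, 213 without Glis3KO2 replicates 1 and 4, 961 without a filter, 3936 with median scaling, 3874 in 1 fit of all arrays and 3876 with trend moderation. It was 370, 595, 435 and 3568 without WT replicates 1 to 4 in turn, and 585 and 852 without Glis3KO2 replicates 1 and 4, so the 1-week shares of all genes called rest on these arrays too. Of all genes called at 1 week, 39.1% were higher, against 74.2% with median scaling. That scaling moved the median of all genes by more than 0.1, to 0.19. For the difference of effects, 57.7% of the called genes were higher, against 42.2% with median scaling.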

Other observations

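Of the 8 further genes of these families, 2 were called lower in 4-week Glis3KO2, against 33.9% of all tested genes. Spink10 (A230091H23Rik on the array), a relative of the epididymal Kazal-type inhibitors, read -4.72, -4.88 and -4.63 in 4-week Glis3KO2, against -3.18, -3.09 and -3.16 in 4-week WT. The groups did not overlap, with a difference of -1.60 in log2 (SE 0.14, limma adjusted p = 0.000548). In WT Spink10 was 1.63 higher at 4 weeks than at 1 week. Rnase2a (Ear11 on the array), an eosinophil-type ribonuclease, read -4.63, -4.77 and -4.35 in 4-week Glis3KO2, against -3.76, -3.67 and -4.19 in 4-week WT. It differed by -0.71 (SE 0.20, limma adjusted p = 0.0168) and lost its call in 5 of 17 alternatives. Spink8, which varied between single 1-week arrays, read -3.18, -0.87 and -1.35 in 4-week Glis3KO2 and 1.20, -0.78 and -1.35 in 4-week WT, with overlapping groups.

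Cldn4, an epithelial tight junction gene, was above background on all 4-week Glis3KO2 arrays, at -3.35, -4.74 and -5.04, and on 0 of 3 4-week WT arrays. Ros1, a receptor gene of the initial segment of the epididymis, was above background on 1 of 3 4-week Glis3KO2 arrays, at -5.97, and on all WT arrays, at -3.94, -4.09 and -3.13. Among the 1-week arrays both were above background only on Glis3KO2 replicate 1, Cldn4 at -6.57 and Ros1 at -6.34. Both genes were picked from their lists after their values were seen.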
